A study of Homo sapiens with 8 samples.

Results

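The 37 genes described here encode the human proteasome, taken by gene symbol and grouped by the part of the particle they build: 7 subunits of the alpha ring (PSMA1 to PSMA7), 7 of the beta ring (PSMB1 to PSMB7), 6 ATPases (PSMC1 to PSMC6), 12 subunits of the lid and base (PSMD1, PSMD2, PSMD3, PSMD4, PSMD6, PSMD7, PSMD8, PSMD11, PSMD12, PSMD13, PSMD14 and ADRM1), 4 activators (PSME1 to PSME4) and the assembly factor POMP. They are 37 of the 12235 genes that were listed in at least 1 of the 8 libraries. The libraries are ribosome footprints, the stretches of mRNA that a ribosome shields from nuclease, from HEK293T cells, a line of human embryonic kidney origin immortalized with SV40 large T antigen. Cells were kept in medium with every amino acid added back (Suff) or in the same medium without arginine (Arg-), leucine (Leu-) or methionine (Met-), all with dialyzed serum, and the labels give each starvation as overnight. Each of the 4 media was profiled once in cells pretreated with cycloheximide (CHX), a drug that halts elongating ribosomes, and once without that pretreatment, so that each condition is 1 library with no replicate.

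The proteasome is the protease that degrades proteins tagged with ubiquitin and returns their amino acids to the cell. Its 20S core is a barrel in which alpha rings form the gated ends and beta rings hold the proteolytic sites, and its 19S cap, made of the ATPases together with the lid and base, binds ubiquitin chains, removes them and unfolds the substrate. Many mRNAs of the complex are under common transcriptional control by NFE2L1 (also called NRF1), and in cells short of amino acids the proteasome is one of the routes by which free amino acids are recovered.

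Values are RPKM, footprint reads scaled to the length of the coding sequence and to the depth of the library, and changes are log2((RPKM + 1) of the starved library / (RPKM + 1) of the Suff library of the same series). The depth, recovered from the whole steps of the RPKM values, was 538222 to 6434043 coding reads with CHX, where Met- was the shallowest library, and 1302523 to 3139745 without CHX. No listed mRNA had fewer than 64 reads with CHX or fewer than 5 without. Of the 37 members, 36 were listed in all 4 libraries without CHX, but only 34, 34, 35 and 21 in Suff, Arg-, Leu- and Met- with CHX. Among 7 markers of HEK293T cells, 6 to 7 were listed in the libraries without CHX and 2 to 5 in those with CHX, and of 12 markers of other lineages 0 to 2 were listed in any library. With 1 library per condition there is no test across cultures. The 95% intervals given below cover counting error only, PCR copies are not independent molecules, and a member was called changed when it differed at least 2-fold.

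Without CHX, footprint density on the proteasome mRNAs was lower in starved than in Suff cells for most subunits, and furthest under Met-. The median log2 ratio of the 36 members compared was -0.46 under Arg-, -0.22 under Leu- and -0.72 under Met-. Over all mRNAs compared, the median was -0.02, 0.14 and 0.32. Relative to those medians the members lay at -0.43, -0.36 and -1.03. RPKM is a share of a library, so a change common to all mRNAs, such as fewer cells or less RNA per cell, does not show in it. For a member, less of its mRNA and fewer ribosomes per mRNA, relative to other mRNAs, cannot be told apart. mRNA abundance was not analysed here.

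Under Met-, 13 of the 36 members were at least 2-fold lower, against 5.34% of the 7884 mRNAs tested, and no member was 2-fold higher, against 20.2%. Under Arg-, 3 members were 2-fold lower, against 5.95% of 7448 mRNAs, and none was 2-fold higher, against 8.23%. No member passed 2-fold in either direction under Leu-, where 2.06% of 7558 mRNAs were that much lower and 6.85% that much higher. By sign alone, 32, 31 and 34 of the 36 members were lower under Arg-, Leu- and Met-, beside 51.4%, 39.0% and 34.4% of all mRNAs. These 3 comparisons share the Suff library. At 1.5-fold, 13, 7 and 21 members were lower (18.5%, 7.79% and 12.9% of all mRNAs) and 1, 1 and 0 higher (19.6%, 21.6% and 36.9%). Against the median of all mRNAs as the line, 32, 34 and 34 members lay below it.

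**Figure D1:**
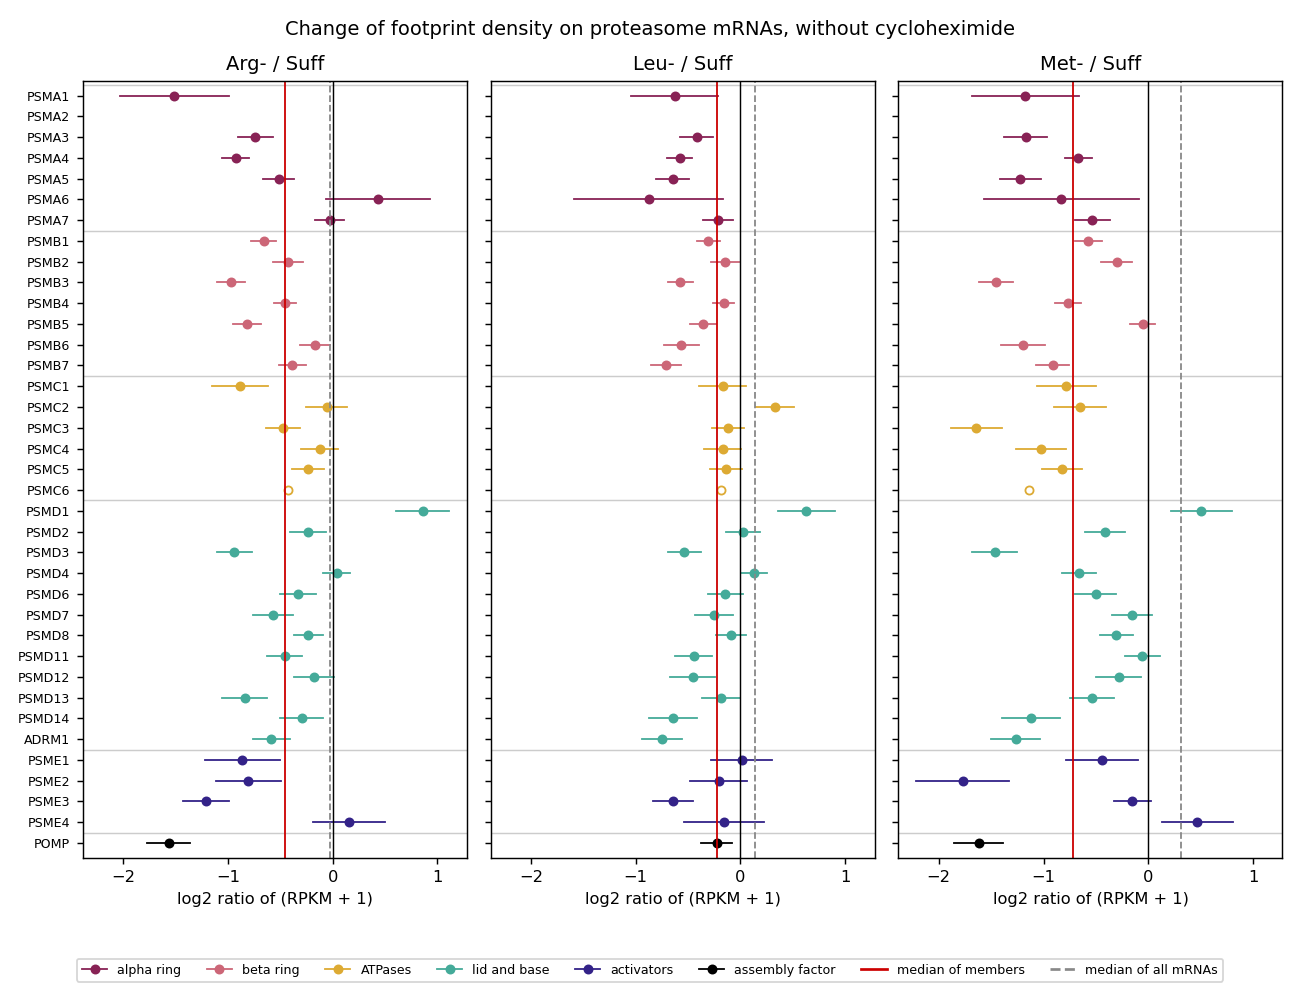
Log2 ratio of (RPKM + 1) of each starved library over Suff without CHX, 1 row per member, coloured by part. Points are members, horizontal lines 95% counting intervals (an open circle has none), the red line is the median of the members (-0.46, -0.22 and -0.72) and the dashed line the median of all mRNAs. In all 3 panels most points lie left of 0, and PSMD1 lies right of 0 in each.

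Of the 36 members, 29 were lower in all 3 starved libraries and 1, PSMD1, was higher in all 3. The share of all mRNAs lower or higher in all 3 was not counted, here or for the parts below. Because the 3 ratios share the Suff library, agreement in sign among them is not independent. For 15 of the 29 the counting interval stayed below 0 in every comparison. The lowest of the 3 ratios belonged to Met- for 22 members, to Arg- for 11 and to Leu- for 3. Counts by interval and by lowest ratio were not made over all mRNAs. Summed over the 35 members with recovered reads, the share of coding reads was 1.23% in Suff (95% Wilson interval 1.22 to 1.24%), 0.867% in Arg- (0.853 to 0.881%), 0.995% in Leu- (0.979 to 1.01%) and 0.758% in Met- (0.743 to 0.773%). No pair of these intervals overlapped.

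In the 20S core, 12 of 13 subunits listed were lower in all 3 starved libraries without CHX. PSMA6 was the exception. The alpha ring, whose N-terminal tails gate the entry pore, had median log2 ratios of -0.63, -0.60 and -1.001 under Arg-, Leu- and Met-. The beta ring had medians of -0.45, -0.36 and -0.76.

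The beta ring holds the 3 catalytic subunits, which did not move alike. PSMB6, the caspase-like subunit, had an RPKM of 528 in Suff, 470 in Arg-, 356 in Leu- and 230 in Met-. That order is a fall to 2.29-fold below Suff under Met-, with a log2 ratio of -1.19 (95% counting interval -1.40 to -0.98). PSMB7, the trypsin-like subunit, went from 671 in Suff to 514 in Arg-, 409 in Leu- and 356 in Met-, so that its 4 libraries stand in the same order as those of PSMB6. PSMB5, the chymotrypsin-like subunit and the main target of bortezomib, read 784 in Suff, 444 in Arg-, 610 in Leu- and 754 in Met-. PSMB5 was lowest under Arg-, at -0.82 (-0.95 to -0.68), and its Met- ratio of -0.06 (-0.18 to 0.06) did not leave 0 by its counting interval. Of the 3 catalytic subunits, PSMB5 thus had the ratio nearest 0 under Met- and the lowest under Arg-.

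Among the structural beta subunits, PSMB3 had the highest density of any member in Suff, at an RPKM of 1156, and read 591, 777 and 422 in Arg-, Leu- and Met-. Its log2 ratios were -0.97, -0.57 and -1.45. PSMB1, PSMB2 and PSMB4 were lower by smaller amounts, between -0.15 and -0.76 over the 3 starvations. The alpha subunits PSMA3 and PSMA5 were 2-fold lower under Met-, with ratios of -1.17 and -1.22. PSMA4 was lowest under Arg-, at an RPKM of 498 beside 945 in Suff.

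PSMA1 and PSMA6 stood apart from their ring without CHX. PSMA1 read 78.2, 26.8, 50.3 and 34.1 in Suff, Arg-, Leu- and Met-, and PSMA6 read 33.2, 45.0, 17.6 and 18.2, whereas the other 4 alpha subunits listed lay between 512 and 945 in Suff. With ratios of -1.51 (-2.03 to -0.99) and 0.43 (-0.07 to 0.93), PSMA1 was the second lowest and PSMA6 the second highest member under Arg-, and under Leu- PSMA6 was the lowest at -0.88 (-1.58 to -0.17). The alpha ring contains equal numbers of each subunit, so these levels are not those of the stoichiometry. PSMA1 rested on 35 to 199 reads and PSMA6 on 18 to 79, and only reads that map to a single transcript were counted. The part played by reads shared between transcripts was not tested. PSMA2 was not listed in any library without CHX.

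**Figure D2:**
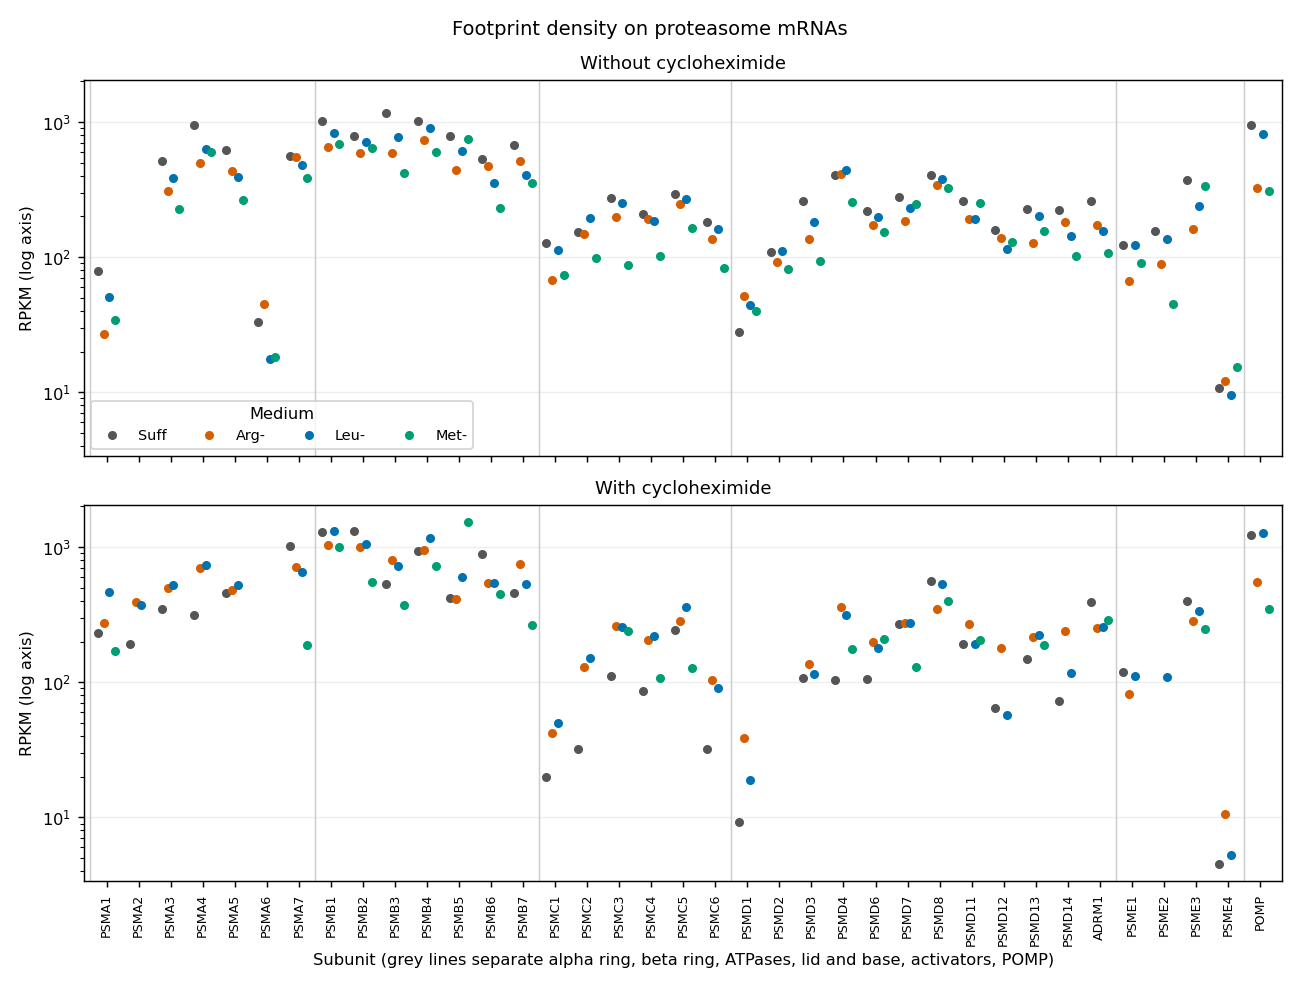
RPKM on a log axis for each member (horizontal axis) in the 4 media, without CHX above and with CHX below; each point is 1 library and a missing point was not listed. The alpha and beta rings, apart from PSMA1 and PSMA6 without CHX, lie above most of the ATPases and the lid and base.

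Across the complex, subunits of the core were more densely covered than those of the cap. Without CHX the median RPKM of the 13 core subunits listed was 671, 498, 482 and 386 in Suff, Arg-, Leu- and Met-, and that of the 18 cap subunits was 225, 173, 189 and 105. The core median was thus 2.98, 2.87, 2.55 and 3.67 times the cap median. In Suff, 11 of the 13 core subunits lay above every cap subunit, of which PSMD8 was the highest at 403, and in Arg-, Leu- and Met- 10, 7 and 8 of 13 did. With CHX it was 5, 12 and 8 of 13 in Suff, Arg- and Leu- and 5 of 9 in Met-. The SD of log2 RPKM within the beta ring was 0.40 in Suff, 0.26 in Arg-, 0.52 in Leu- and 0.62 in Met-, and within the ATPases 0.47, 0.65, 0.46 and 0.41. It was 1.95, 1.92, 2.12 and 2.03 within the alpha ring, where PSMA1 and PSMA6 set the range, and 1.03, 0.78, 0.86 and 0.86 in the lid and base.

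The ATPases form the ring that unfolds substrates and threads them into the core. Their median log2 ratios without CHX were -0.33 under Arg-, -0.15 under Leu- and -0.92 under Met-. All 6 were lower under Met- and under Arg-, and 5 of 6 under Leu-, where PSMC2 was higher at 0.33, second to PSMD1 among the members. Of the 5 with a counting interval, 3 lay wholly below 0 under Arg-, 0 under Leu- and 5 under Met-, a count not made over all mRNAs. PSMC3 had an RPKM of 274 in Suff, 198 in Arg-, 253 in Leu- and 87.2 in Met-. The Met- library stands well below the other 3, and its log2 ratio of -1.64 (-1.89 to -1.39) was the lowest of the ATPases and the second lowest of all members in that comparison. PSMC4 and PSMC6 were also 2-fold lower under Met-, at -1.02 and -1.14. PSMC6 has no counting interval because its values did not fall on whole reads of its annotated length.

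The lid and base differed more among themselves. Their medians without CHX were -0.31, -0.22 and -0.46 under Arg-, Leu- and Met-. Of 12 subunits, 9 were lower in all 3 starved libraries, and the others were PSMD1, PSMD2 and PSMD4.

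Ubiquitin chains are bound by PSMD4 (RPN10), ADRM1 (RPN13) and PSMD2 (RPN1). ADRM1 read 260 in Suff, 173 in Arg-, 155 in Leu- and 108 in Met-, so that every starved library was below Suff, with ratios of -0.58, -0.75 and -1.26, and it was the second lowest of all members under Leu-. PSMD4 read 402, 413, 440 and 254. Its Arg- ratio of 0.04 (-0.09 to 0.17) did not leave 0, and only its Met- library was clearly lower, at -0.66 (-0.83 to -0.50). PSMD2, the base scaffold that also docks shuttle factors, read 109, 92.4, 110 and 81.6, the narrowest range of the 3 receptors.

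PSMD14 (RPN11) cleaves ubiquitin chains from the substrate. Its RPKM was 223 in Suff, 181 in Arg-, 142 in Leu- and 102 in Met-, with log2 ratios of -0.30, -0.64 and -1.12. The non-ATPase subunit PSMD3 was among the lowest members under Met-, at 94.2 beside 262 in Suff and a ratio of -1.47.

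PSMD1 (RPN2), the other large scaffold of the base, went the other way. It read 28.0 in Suff, 51.6 in Arg-, 43.9 in Leu- and 40.2 in Met-, with every starved library above Suff. The log2 ratios were 0.86 (0.60 to 1.11), 0.63 (0.36 to 0.90) and 0.51 (0.21 to 0.80). It was the highest of the 36 members in all 3 comparisons, on 150 to 252 reads, and none of its ratios reached 2-fold.

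The activators cap the core in place of the 19S. PSME1 and PSME2 form the 11S regulator that is induced by interferon, PSME3 forms the nuclear homolog, and PSME4 (PA200) is a large single-chain activator. PSME2 read 157, 89.3, 135 and 45.2 in Suff, Arg-, Leu- and Met-. Its Met- ratio of -1.77 (-2.22 to -1.32) was the lowest of all members in that comparison and rests on 45 reads. PSME1 read 122, 66.8, 123 and 89.7, lowest under Arg- at -0.86. PSME3 read 372, 161, 238 and 335, also lowest under Arg-, at -1.21 (-1.42 to -0.99), with a Met- ratio of -0.15 (-0.33 to 0.03). PSME4, at 10.8, 12.1, 9.54 and 15.3, was the most sparsely covered member, and its Met- ratio of 0.47 (0.13 to 0.81) made it, with PSMD1, 1 of the 2 members above 0 in that comparison.

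POMP, the chaperone with which the beta ring is assembled on the alpha ring and which the finished core degrades, had its low values in the same media in both series. Its RPKM was 955 in Suff, 322 in Arg-, 815 in Leu- and 310 in Met-. The Arg- and Met- libraries are close to each other and well below the Suff and Leu- libraries. The log2 ratios were -1.56 (-1.77 to -1.36) under Arg-, the lowest of all members, -0.23 (-0.37 to -0.08) under Leu- and -1.62 (-1.85 to -1.39) under Met-. With CHX, POMP read 1224 in Suff, 551 in Arg-, 1268 in Leu- and 347 in Met-, the same grouping of the 4 media, with ratios of -1.15, 0.05 and -1.82. Among the members compared in both series, POMP alone was at least 2-fold lower in both under the same starvation, Arg- and Met-. None was 2-fold higher in both. How many of all mRNAs did either was not counted. Members not listed in Met- with CHX could not enter this comparison. Among them, PSMA3 and PSMA5 were 2-fold lower under Met- without CHX. In Suff with CHX, both lay at least 2-fold above the RPKM that 64 reads would give in Met-.

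The 5 members with the lowest ratio and the 2 above 0 under Met- without CHX are shown by the bases around their start codon (GRCh38, GENCODE 44), since these are the bases that a scanning ribosome reads when it selects a start. The ATG is in capitals, with 6 bases before and 1 after it.
PSME2, chr14:24146579-24146581, minus strand: agcagcATGg
PSMC3, chr11:47426277-47426279, minus strand: caggaaATGa
POMP, chr13:28659185-28659187, plus strand: cggaagATGa
PSMD3, chr17:39980971-39980973, plus strand: ggtgccATGa
PSMB3, chr17:38752827-38752829, plus strand: gcaatcATGt
PSMD1, chr2:231057026-231057028, plus strand: gcagccATGa
PSME4, chr2:53970782-53970784, minus strand: gggctcATGg
All 5 low members and PSMD1 have a purine 3 bases before the ATG, as did 36 of the 37 members (97.3%), beside 85.6% of 10891 mRNAs listed in Suff without CHX. PSME4 was the exception. A purine at that place together with a G after the ATG was present in 18 members (48.6%) and in 45.8% of all mRNAs, and of the 7 start codons shown only that of PSME2 has both. The contexts of the lowest and of the highest members do not separate by these 2 positions.

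With CHX the picture was different in sign for many subunits. The median log2 ratio was 0.49 under Arg- and 0.43 under Leu- over 33 members, and -0.45 under Met- over 21. All mRNAs compared had medians of -0.23, 0.02 and 0.89, so that relative to them the members lay at 0.73, 0.41 and -1.34. Under Met- the 1890 mRNAs compared are only those that reached 64 reads in the shallowest library. An mRNA of moderate density in Suff entered only if it was high in Met-, so 0.89 is the median of a filtered set. At least 2-fold higher were 11 members under Arg- (16.6% of 5074 mRNAs), 8 under Leu- (12.1% of 5208) and 2 under Met- (46.7% of 1890). At least 2-fold lower were 1, 0 and 4 members (19.7%, 7.28% and 9.79% of mRNAs). At 1.5-fold these counts were 14, 14 and 4 higher (25.2%, 24.3% and 59.7%) and 4, 3 and 8 lower (35.7%, 20.0% and 15.4%). By sign alone, 10, 8 and 14 members were lower, beside 59.0%, 49.0% and 25.2% of mRNAs. When the deeper Arg- and Leu- libraries and the Suff library were drawn down to the depth of Met-, 23 and 24 members kept enough reads to be compared, and 3 and 2 of them were 2-fold higher (9.81% of 928 and 5.82% of 1134 mRNAs). Of the 11 and 8 members that were 2-fold higher at full depth, 2 and 3 could still be compared there and 2 and 2 passed, so this draw leaves most of those folds unmeasured. For Met- against the Suff library drawn down in this way, 19 members were compared. Of these, 2 were 2-fold higher and 3 were 2-fold lower, beside 15.9% and 18.9% of 901 mRNAs.

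The ATPases had the highest medians of any part under Arg- and Leu-. Their medians were 1.23 and 1.33, with all 6 higher and 5 of 6 at least 2-fold higher in each. PSMC2 read 31.9 in Suff, 129 in Arg- and 150 in Leu-, and its ratios of 1.99 (1.69 to 2.28) and 2.20 (1.92 to 2.49) were the highest of all members. In the lid and base the medians were 0.53 and 0.11. PSMD4 rose from 104 in Suff to 361 in Arg- and 317 in Leu- (ratios 1.79 and 1.60, the second highest of all members under Leu-), and PSMD14 from 72.2 to 238 in Arg-, while its 117 in Leu- was under 2-fold. PSMD1 read 9.29, 38.6 and 18.8, on 68 reads in Suff, and its Arg- ratio of 1.94 was second to that of PSMC2. Its Suff value lay below the minimum mean RPKM for a comparison, so PSMD1 could be compared only if higher when starved. Its sign here therefore cannot be set beside that without CHX as a separate agreement.

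In the 20S core with CHX, the beta ring had medians of -0.02 under Arg-, which became 0.21 relative to all mRNAs, and 0.20 under Leu-, and the alpha ring 0.38 and 0.78, or 0.15 and 0.40 when every gene was read on a transcript listed in both libraries. PSMB6 read 887 in Suff, 545 in Arg-, 545 in Leu- and 454 in Met-, below Suff in all 3, and its -0.70 was the lowest ratio of any member under Leu-. PSMB7 read 461, 746, 530 and 266. ADRM1, at 393, 252, 256 and 291, was also below Suff throughout and had the second lowest value among the cap subunits under Arg- (-0.64), after PSMD8 at -0.69. PSMA7, at -0.64, was the second lowest member under Leu-, and PSMB6 the second lowest under Arg-, after POMP. PSMA4 went from 317 in Suff to 706 in Arg- and 741 in Leu-, at least 2-fold higher in both. PSMA2 was called 2-fold higher under Arg- (1.03) because its best covered transcript differed between libraries: on the transcript listed in both, it read 191 in Suff and 156 in Arg-, a ratio of -0.29, and 163 in Leu-, a ratio of -0.22.

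**Figure D3:**
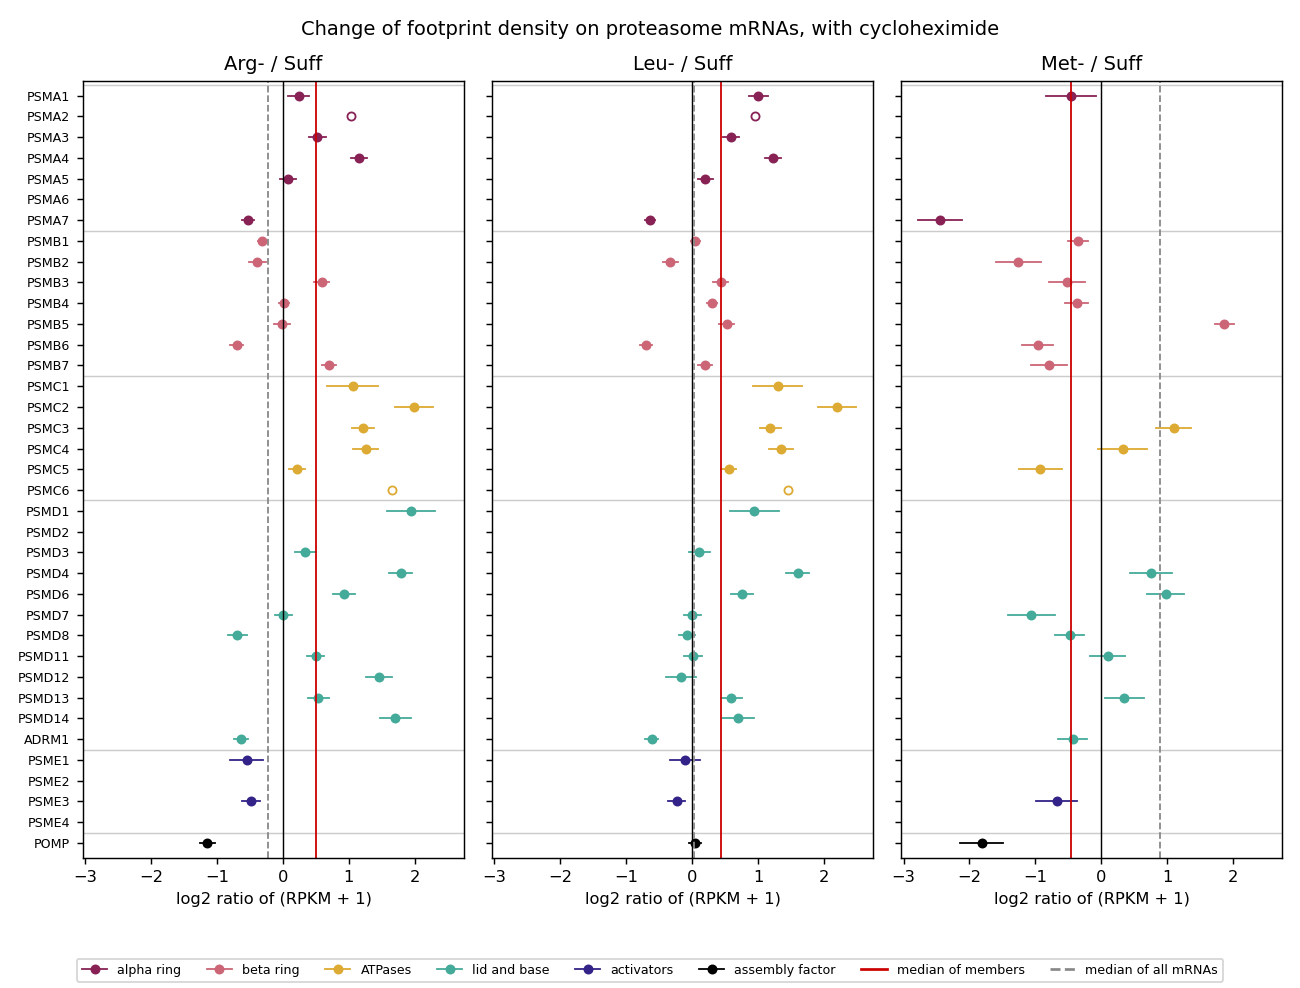
Log2 ratio of (RPKM + 1) of each starved library over Suff with CHX, drawn as for the series without CHX; a row with no point was not compared. Under Arg- and Leu- the ATPases lie right of 0 and the red median line (0.49 and 0.43) lies right of the dashed line of all mRNAs, and under Met- it lies left of it.

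Met- with CHX listed 21 members. The part medians were -1.45 for 2 alpha subunits, -0.52 for the beta ring, 0.33 for 3 ATPases and 0.10 for 7 subunits of the lid and base. Relative to the median of all mRNAs compared, each was negative, at -2.34, -1.41, -0.56 and -0.79. That median covers only mRNAs with at least 64 reads in this library. PSMB5 read 419 in Suff, 413 in Arg-, 603 in Leu- and 1535 in Met-, and its Met- ratio of 1.87 (1.72 to 2.02) was the highest of all members, followed by PSMC3 at 1.10. PSMA7 fell from 1023 in Suff to 187 in Met-, a ratio of -2.44 (-2.78 to -2.11), with POMP next at -1.82. PSMB2 and PSMD7 were the other members at least 2-fold lower, at -1.26 and -1.06. PSMD4 read 176, ADRM1 291 and PSME3 249 there, with ratios of 0.76, -0.43 and -0.67. At their Suff levels, PSMD4 and PSMC4, whose ratio is the ATPase median, would not have reached 64 reads here. Both could be listed only if higher.

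Members missing from the Met- library with CHX were PSMA2, PSMA3, PSMA4, PSMA5, PSMA6, PSMC1, PSMC2, PSMC6, PSMD1, PSMD2, PSMD3, PSMD12, PSMD14, PSME1, PSME2 and PSME4. PSMA6 and PSMD2 were not listed in any library with CHX, and PSME2 was listed only in Leu-, at 109 on a short coding sequence of 117 bases. Of the 13 that were listed in Suff, 8 had an RPKM there below what 64 reads would give in Met-, so that a level equal to that in Suff would not have been listed. The other 5 were above that limit, 3 of them at least 2-fold: PSMA5 (454 in Suff, against 164 for 64 reads in Met-), PSMA3 (346 against 155) and PSMA4 (317 against 152). PSME1 read 120, 81.4 and 111 in Suff, Arg- and Leu-, PSME3 398, 283 and 339, and PSME4 4.52, 10.6 and 5.26, the last under the minimum mean RPKM of 10 for a comparison.

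Set side by side, the series often differed in sign. Of 32 members compared under Arg- in both, 10 were lower and 2 higher in both, and 20 were higher with CHX and lower without. Under Leu- these counts were 7, 3 and 21, with 1 member, PSME1, lower with CHX and higher without, and under Met- 14, 0 and 7 of 21. Such counts were not made over all mRNAs, so whether the members differ from other mRNAs in this cannot be told. Higher in both were PSMD1 and PSMD4 under Arg- and PSMC2, PSMD1 and PSMD4 under Leu-, where PSMD1 with CHX passed the minimum RPKM only through its starved libraries. Across members, Pearson r between the series was 0.46, 0.44 and 0.13 and Spearman rho 0.35, 0.34 and 0.08 (n = 32, 32 and 21 genes, which are not independent replicates and share libraries and coding length). Members that were relatively high in one series thus tended to be so in the other under Arg- and Leu-, around a median of opposite sign. The series also differ in depth, in the lowest read count listed and in duplicate removal, of which only the series without CHX carries a mark. For 8 of 34 members they differ in the transcript that was best covered (PSMA1, PSMB2, PSMB6, PSMD4, PSMD8, PSMD13, PSME2 and PSME3). The part of these in the difference was not tested.

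**Figure D4:**
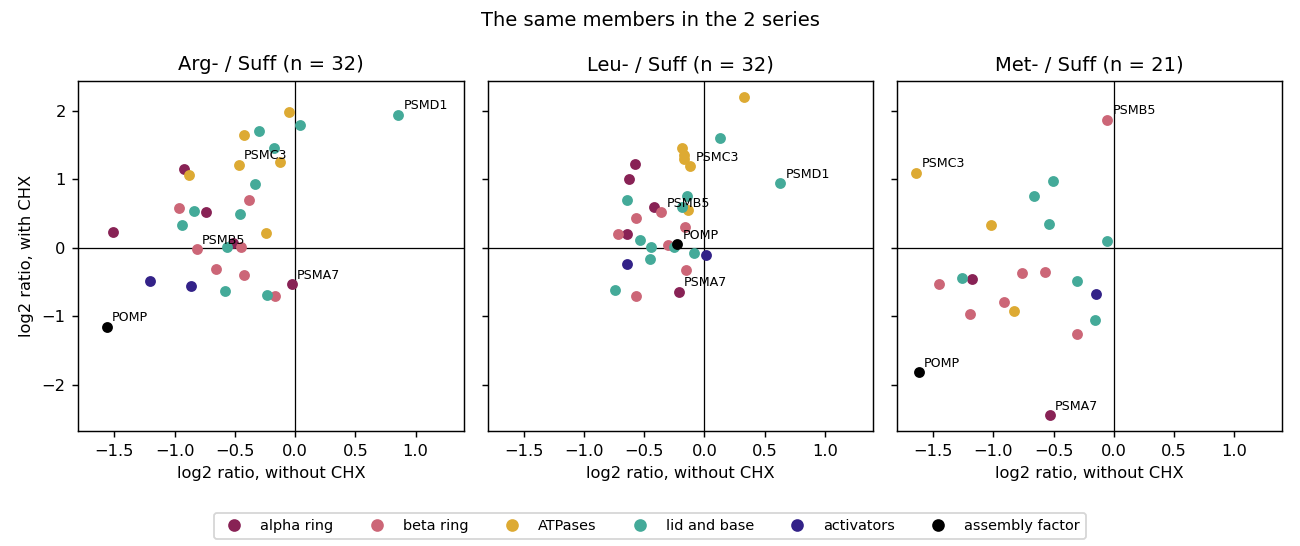
Log2 ratio without CHX (horizontal axis) against log2 ratio with CHX (vertical axis) for the members compared in both series, 1 panel per starvation, coloured by part. Under Arg- and Leu- most points lie in the upper left quadrant (20 and 21 of 32), and POMP lies at the lower left under Arg- and Met-.

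The residue make-up of the proteins was set against the ratios. Methionine made up a median of 3.04% of residues in the 37 members and 2.13% in all mRNAs, leucine 10.3% and 9.76%, and arginine 5.24% and 5.63%. PSMB3 had the highest methionine share of the members (7.32%) and PSMA7 the lowest (1.21%). Without CHX, PSMB3 had the lower Met- ratio of the pair, -1.45 against -0.53, and with CHX the higher, -0.52 against -2.44. Across 36 members the methionine share and the Met- ratio without CHX had a Spearman rho of -0.32, beside -0.08 over 7628 mRNAs, and with CHX rho was 0.10 over 21 members. Leucine share and Leu- ratio without CHX had rho 0.28, and arginine share and Arg- ratio 0.05.

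Protein length was set against the same ratios. Without CHX, Pearson r between log2 length and the log2 ratio was 0.53, 0.43 and 0.49 over the 36 members under Arg-, Leu- and Met-, and with CHX it was 0.60, 0.36 and 0.56. Spearman rho was 0.35, 0.39 and 0.29 without CHX, where under Met- the methionine share (-0.32) and the leucine share (0.33) lay further from 0, and 0.55, 0.36 and 0.59 with CHX. Over all mRNAs r was 0.26 to 0.53 in the 6 comparisons. The members are short, with a median of 310 residues against 477, and their medians centred on mRNAs between their shortest and second longest coding length are given with the alternatives. The long PSMD1 and PSME4 are the members above 0 under Met- without CHX.

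NFE2L1, the transcription factor that drives proteasome genes, was higher in each starved library of both series. Its RPKM was 26.0 in Suff, 34.0 in Arg-, 42.6 in Leu- and 60.6 in Met- without CHX, and 11.1, 25.9, 39.1 and 73.8 with CHX. The order of the 4 media was the same in both series. The log2 ratios were 0.38 (0.05 to 0.70), 0.69 (0.38 to 1.01) and 1.19 (0.90 to 1.49) without CHX and 1.15, 1.73 and 2.62 with CHX. Without CHX, NFE2L1 was thus at its highest in the library in which the members were at their lowest.

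A core of the antioxidant response element, the site type to which NFE2L1 binds, was searched as TGACNNNGC on both strands in the RefSeq promoter windows (GRCh38.p14, from 250 bases before to 50 after the gene start). Of the 32 members with a window, 11 held it (34.4%), beside 16.1% of 27305 genes. The windows are shown for 4 members whose densities are described above, with 10 bases on either side of the match, which is in capitals.
PSMB3, chr17:38752627-38752655, plus strand: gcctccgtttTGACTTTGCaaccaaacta
PSMD3, chr17:39980760-39980788, plus strand: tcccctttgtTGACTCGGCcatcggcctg
ADRM1, chr20:62302749-62302777, plus strand: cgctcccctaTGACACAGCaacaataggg
PSMA4, chr15:78540650-78540678, plus strand: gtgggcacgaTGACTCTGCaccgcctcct
The other members with a match were PSMC4, PSMC5, PSMD1, PSMD12, PSME1, PSME2 and PSME4. A match describes the letters only, and footprints do not report on promoters. POMP had no match, and no window was at hand for PSMA7, PSMB1, PSMB6, PSMB7 and PSMD4.

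Of 39 other genes of the pathway (further subunits, assembly chaperones, regulators, deubiquitinases, shuttle factors and ubiquitin genes), 33 were compared in each starvation without CHX. Their medians were -0.22, 0.00 and 0.06 under Arg-, Leu- and Met-, with 13, 17 and 17 genes higher and 3, 1 and 4 at least 2-fold higher (8.23%, 6.85% and 20.2% of all mRNAs) and 1, 2 and 3 at least 2-fold lower (5.95%, 2.06% and 5.34%). UBA6, which activates ubiquitin, had ratios of 1.25, 1.03 and 1.58. The lowest under Arg- were UBE3C (-1.11) and PSMG3 (-0.98), under Leu- PSMB10 (-1.42) and RPS27A (-1.23), and under Met- PSMG1 (-1.31). UBQLN2, a shuttle factor, had a ratio of 1.74 under Met-, and UBA6 was highest under Leu-. USP14, a deubiquitinase that sits on the cap, read 61.6, 108, 66.1 and 115 without CHX, with ratios of 0.80, 0.10 and 0.89. UCHL5, the other such deubiquitinase, read 159, 103, 195 and 133, and the inhibitor PSMF1 334, 208, 291 and 268.

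With CHX, 30, 29 and 12 of the 39 genes were compared, with medians of -0.10, -0.08 and 0.43. The highest were USP14 (2.09) under Arg- and NFE2L1 under Leu- (1.73) and again under Met- (2.62), where NFE2L1 could be listed only if high. The lowest were PSMG3 (-1.45) and RPS27A (-1.41) under Arg-, RPS27A (-1.84) and PSMB10 (-1.35) under Leu-, and RPS27A (-2.65) under Met-. RPS27A encodes ubiquitin fused to a ribosomal protein. UCHL5 had ratios of 0.22 and 0.26 under Arg- and Leu-, and PSMF1 of -1.04, -0.36 and 0.22.

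**Figure D5:**
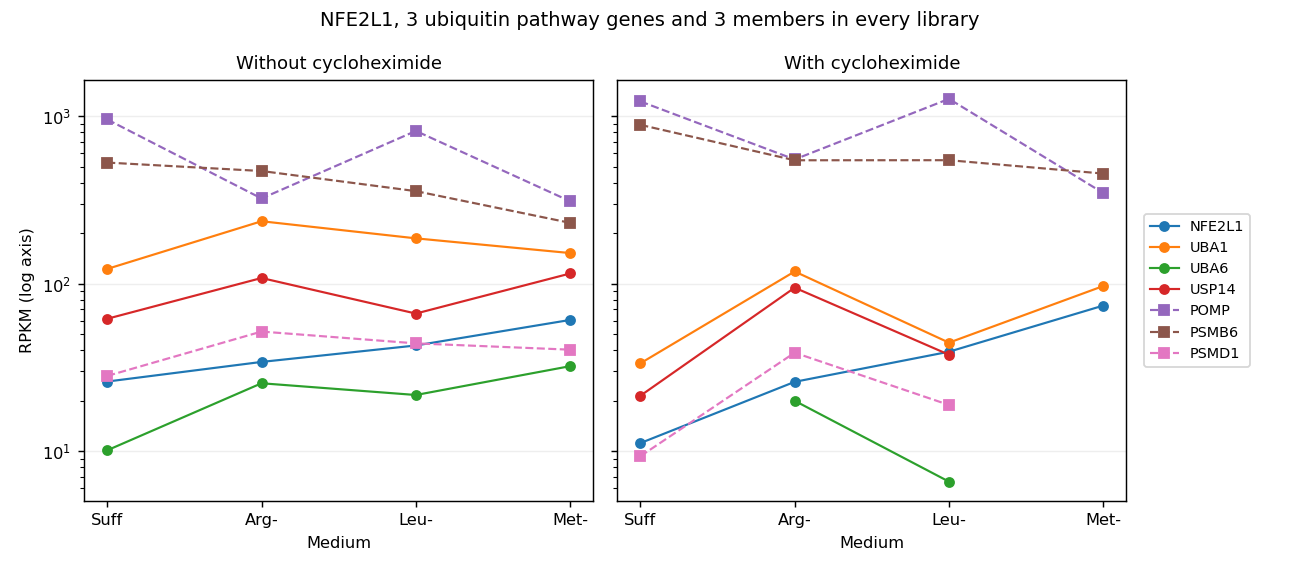
RPKM on a log axis of NFE2L1, UBA1, UBA6 and USP14 (circles) and of the members POMP, PSMB6 and PSMD1 (squares) in the 4 media, without CHX at left and with CHX at right; each point is 1 library and a missing point was not listed. NFE2L1 lies above its Suff value in every starved library, whereas PSMB6 lies below its own. With CHX, NFE2L1 could be listed in Met- only above its Suff value.

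Other large complexes give a scale for these medians. Without CHX the 8 subunits of the CCT chaperonin had medians of -0.10, 0.20 and -0.59 under Arg-, Leu- and Met-, and the 11 compared subunits of the initiation factor eIF3 had -0.33, -0.26 and -0.36, beside -0.46, -0.22 and -0.72 for the proteasome. With CHX (8, 8 and 6 CCT and 12, 12 and 7 eIF3 subunits compared) the CCT medians were 1.81, 1.88 and 1.07 and those of eIF3 0.83, 0.53 and 0.90, beside 0.49, 0.43 and -0.45. The difference between the complexes was not tested.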

How the data were processed

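Ribosome footprints of 8 libraries were analysed, 1 per medium and series. Per the study's methods and the submitters' processing notes, the authors trimmed adaptors (a Perl script per the methods; the notes name cutadapt), filtered reads by length and quality, aligned them with Bowtie to the GRCh38 transcriptome without mismatches and kept unique reads; versions are not given in the sources used here. The deposited RPKM values are per transcript and coding length, and the series without CHX carries a mark of duplicate removal. Here, 96.7 to 97.1% of transcripts were matched to GENCODE 44, the highest transcript stood for its gene, and reads were recovered from whole steps of RPKM (tolerance 0.01; 97.2 to 97.4% of transcripts). A pseudocount of 1 was used. mRNAs listed in both libraries with a mean RPKM of at least 10 were compared. Lists and members were chosen with earlier results of these data known. All members could be named; values in every library were given for catalytic subunits, ubiquitin receptors, PSMD14, POMP and activators, with the 2 highest and 2 lowest per comparison. Some genes of the wider pathway are not reported here by name. Alternatives covered pseudocount, unlisted mRNAs, transcript choice, scaling, filters, depth and fold. Scripts (Python 3, numpy, pandas, scipy) were tested on simulated data.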

Additional observations from a re-analysis of the deposited data

Results flagged for a closer look

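The results below had opposite signs in the series with and without CHX for the same starvation; the difference between the series was not tested, since each condition is 1 library. Under Arg- the median log2 ratio of the members was 0.49 with CHX and -0.46 without, that of the alpha ring 0.38 and -0.63, that of the ATPases 1.23 and -0.33, and that of the lid and base 0.53 and -0.31. Single members that were opposite under Arg- were PSMA4 (1.15 with CHX, -0.92 without), PSMB3 (0.59 and -0.97) and PSMC1 (1.06 and -0.88). Under Leu- the members had medians of 0.43 with CHX and -0.22 without, the alpha ring 0.78 and -0.60 and the beta ring 0.20 and -0.36, and PSMA1 (1.01 and -0.63) and PSMD14 (0.69 and -0.64) were opposite. Under Met- the ATPases had 0.33 with CHX, over 3 subunits, and -0.92 without, and PSMC3 (1.10 and -1.64) and PSMD4 (0.76 and -0.66) were opposite. PSMA1 and PSMD4 were read on different transcripts in the 2 series. The alpha ring medians with CHX hold PSMA2 read on a different transcript in Suff, and with transcripts listed in both libraries they were 0.15 under Arg- and 0.40 under Leu-.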

How the results depend on the processing

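No paired analysis was possible because each condition is 1 library and the labels carry no replicate numbers. The median of the members kept its sign under every alternative run. Centring on the median of all mRNAs moved it to 0.73 (Arg- with CHX), -1.34 (Met- with CHX) and -1.03 (Met- without CHX), with 0 members 2-fold lower under Arg- with CHX, 0 higher and 14 lower under Met- with CHX, and 1 lower under Leu- without. Centring on mRNAs between the shortest and the second longest coding length of the members, chosen after seeing the data, gave 0.71, -1.40 and -1.01, and the same 4 counts of 0, 0, 14 and 1. With reads drawn to the shallowest library, the CHX medians were 0.22 (Arg-) over 23 members, whose median at full depth was 0.07, and 0.18 (Leu-) over 24, at full depth 0.20, with 3 and 2 members 2-fold higher and 2 lower under Arg-. Of the parts, the alpha ring moved to 0.03 and 0.22 and the ATPases, with 2 subunits left, to 0.69 and 0.93. Also at that depth 1 member was higher under Arg- without CHX. With the best transcript among those listed in both libraries, chosen after seeing the data, the Arg- median with CHX was 0.34, the alpha ring was at 0.15 (Arg-) and 0.40 (Leu-), and PSMA2 turned to -0.29 under Arg-; with the transcript of the highest mean, which leaves PSMA2 out, the ring was at 0.23 and 0.59. A minimum RPKM of 50 gave 0.34 under Arg- with CHX. Under Met- with CHX, unlisted mRNAs counted as 0 gave a median of -0.92 with 14 members lower, and set to the lowest listed reads 7 higher and 7 lower. There the ATPases turned to -0.92 (unlisted as 0), -0.56 (centred) and -0.61 (centred by length), and the activators to 0.40 (lowest listed reads). The lid and base, at 0.10, became -0.46, -0.79 and -0.84 under the same 3 settings and -0.11 at equal depth, and the beta ring under Arg- with CHX, at -0.02, became 0.01 (summed transcripts), 0.21 and 0.19. At 1.5-fold, 4 members were lower under Arg- with CHX, 14 higher and 3 lower under Leu- with CHX, 4 higher and 8 lower under Met- with CHX, and without CHX 1 higher and 13 lower (Arg-), 1 and 7 (Leu-) and 21 lower (Met-). Summing transcripts changed the SD of log2 RPKM to 0.97 and 1.41 in the lid and base (Arg- and Leu- with CHX), 0.25 in the alpha ring and 0.61 in the beta ring (Leu- with CHX). The cause of these changes was not tested. Depth limits the Met- library with CHX most, and centring there used only mRNAs that reached 64 reads in that library.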
